A study of Mus musculus with 12 samples.

Results

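The 10 genes of plasma lipoproteins followed here in liver and subcutaneous fat of mice were *Apoa1*, *Apoa2*, *Apoa4*, *Apoa5*, *Apob*, *Apoc1*, *Apoc2*, *Apoc3* and *Apoe*, which encode apolipoproteins, and *Mttp*, which encodes the microsomal triglyceride transfer protein. They were taken by symbol, and each symbol named 1 row of the count table, giving 10 of 54532 genes. In liver the log2 fold changes with the human hexokinase vector lay between -0.38 and 0.05, and none passed the test. In fat 9 could be tested and all 9 had a lower mean with the vector, again with none past the test, and the hepatocyte genes in the same fat libraries moved the same way.

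Lipoproteins are particles of triglyceride and cholesterol ester inside a coat of phospholipid, cholesterol and apolipoproteins. The liver assembles very-low-density lipoprotein around 1 molecule of apolipoprotein B, onto which the transfer protein encoded by *Mttp* loads lipid in the endoplasmic reticulum. It also secretes apolipoproteins A-I and A-II, the main coat proteins of high-density lipoprotein. The smaller exchangeable apolipoproteins move between particles and tune lipoprotein lipase and the uptake of remnants, and apolipoprotein E is also made by macrophages and adipocytes.

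All mice were males that received a single tail-vein injection of an adeno-associated virus, AAV8, at 10 weeks of age and were fed a low-fat diet for 16 weeks. The virus carried either no transgene (null) or human HKDC1 (hHKDC1 OE), in both cases behind the hepatocyte-directed TBG promoter. Each tissue and vector had 3 libraries, 12 in all, and the labels gave no mouse strain and did not say whether liver and fat with the same number came from 1 mouse. The description field of hHKDC1 OE libraries 2 and 3 of both tissues called them knockouts, against their titles and treatment labels, by which they were grouped here. The human transgene was not measured here, and mouse *Hkdc1* had 0 to 8 counts in a library, so the expression table did not check the vector.

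The libraries held 15496019 to 19954971 counts. The sum of 7 adipocyte markers was 19862 to 29663 CPM (counts scaled by sequencing depth) in fat and 19.5 to 47.5 CPM in liver, as the tissue labels say. The sum of 10 hepatocyte markers was 112779, 104489 and 102350 CPM in null liver and 87732, 83576 and 67617 CPM in hHKDC1 OE liver. It was thus lower in all 3 hHKDC1 OE livers, but *Alb* made up most of it in every library. *Alb* had 1068793 to 1216435 counts in null and 713600 to 946040 in hHKDC1 OE liver. Of the 10 markers, 6 had a lower and 4 a higher mean in liver with hHKDC1 OE. Among the higher ones was *Ambp*, at 37533 to 40750 counts in null and 47867 to 82104 in hHKDC1 OE liver. Hepatocyte markers were nevertheless present in every fat library, at 2635, 2554 and 7156 CPM in the null libraries and 2016, 705 and 1120 CPM in the hHKDC1 OE libraries, with none of the 10 at 0. Fat libraries differed in other cells too. The sum of 8 lymphocyte markers was 3.91 to 10.003 CPM in null fat and 46.9 to 738 CPM in hHKDC1 OE fat. In the same order, 8 macrophage markers summed to 321 to 691 CPM and 933 to 1504 CPM, and 6 skeletal muscle markers to 503 to 21152 CPM and 1048 to 15474 CPM. The 4 Kupffer cell markers summed to 3.72 to 12.8 CPM and 11.7 to 145 CPM. That rise lay in *Timd4* (21 to 47 and 87 to 1302 counts) and *Cd5l* (28 to 89 and 122 to 1263 counts). The groups overlapped for *Clec4f* (9 to 91 and 23 to 63 counts) and *Vsig4* (2 to 33 and 8 to 18 counts), so the sum does not show more Kupffer cell RNA. In liver the macrophage sum was 133 to 222 CPM in null and 204 to 395 CPM in hHKDC1 OE libraries, and the Kupffer cell sum was 80.7 to 142 CPM and 143 to 279 CPM. Enterocyte markers, for the gut as the other source of *Apob*, *Apoa4* and *Mttp*, summed to 52.8 to 165 CPM in liver and 2.05 to 16.2 CPM in fat, but in liver nearly all of this was *Fabp2* (858 to 2672 counts), with *Vil1* at 0 to 6 counts and *Lct* at 0, and *Alpi* was at 0 in both tissues. The part of these cells in the results was not tested, and in bulk tissue fewer cells of a type cannot be told apart from less RNA per cell.

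Of the 10 genes, 7 lie in 2 clusters. On chromosome 9, *Apoa1*, *Apoc3*, *Apoa4* and *Apoa5* occupied 43.3 kb from 46228580 to 46271919, with *Apoc3* on the minus strand and the other 3 on the plus strand. On chromosome 7, *Apoc2*, *Apoc1* and *Apoe* lay on the minus strand within 27.6 kb, from 19671579 to 19699188. *Apoa2* was on chromosome 1 (171225054 to 171226379, plus), *Apob* on chromosome 12 (7977648 to 8016835, plus) and *Mttp* on chromosome 3 (138089854 to 138144968, minus). These positions are those of the deposited table and were identical for all 10 in the GENCODE release M21 annotation of GRCm38.

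Reads were counted without regard to strand, so overlaps matter for some of the 10. Of the 813 exon bases of *Apoc2*, 79.5% were shared with the readthrough gene *Gm44805* on the same strand, which had 0 to 3 counts, and *Apoc2* itself had 0 to 64 counts in a library. Its values are therefore uncertain, whereas its neighbour *Apoc4* had 7516 to 11468 counts in liver. *Apoa4* shared 69.8% of its exon bases with 2 antisense genes that had at most 65 counts. Those low counts do not show how many reads *Apoa4* lost to the overlap, so its level against other genes is uncertain too. *Apoa5* shared 20.8% with 1 antisense gene that had none, and *Mttp* shared 9.49%, mostly with *Trmt10a*, which had 45 to 125 counts. The exons of the other 6 overlapped no annotated gene.

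The 250 bases before the gene start of the deposited table are shown for *Apoa2* and *Apoa5*, whose levels in fat tracked the hepatocyte markers closely, and for *Apoe*, whose level did not. The sequences are RefSeq's, on GRCm38.p6, written 5′ to 3′ on the strand of the gene. They lie at chr1:171224804-171225053 (plus), chr9:46268383-46268632 (plus) and chr7:19699189-19699438 (minus), and capitals mark the motifs found.
Apoa2: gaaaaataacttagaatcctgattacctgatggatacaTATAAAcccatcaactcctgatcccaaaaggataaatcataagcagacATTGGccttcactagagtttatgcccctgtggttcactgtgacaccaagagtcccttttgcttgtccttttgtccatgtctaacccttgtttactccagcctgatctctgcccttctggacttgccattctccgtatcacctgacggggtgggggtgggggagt
Apoa5: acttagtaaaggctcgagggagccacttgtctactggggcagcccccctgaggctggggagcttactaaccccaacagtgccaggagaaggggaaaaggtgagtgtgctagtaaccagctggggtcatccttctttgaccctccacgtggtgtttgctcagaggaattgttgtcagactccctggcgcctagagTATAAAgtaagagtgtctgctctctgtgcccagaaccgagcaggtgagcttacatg
Apoe: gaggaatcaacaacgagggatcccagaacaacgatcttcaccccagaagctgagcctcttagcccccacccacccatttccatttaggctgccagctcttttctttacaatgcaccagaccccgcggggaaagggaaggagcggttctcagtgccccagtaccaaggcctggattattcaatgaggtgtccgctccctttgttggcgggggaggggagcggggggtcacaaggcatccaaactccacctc
A set of 5 motifs was searched on both strands: TATAAA (the TATA box), CCAAT (the CCAAT box), CAAAGTCCA (an HNF4A-type element), AGGTCA (the binding element of nuclear receptor monomers) and GTTAAT (part of the HNF1 element). RefSeq held 12 such windows for 8 of the 10 genes, several of them alternative starts of 1 gene, and *Apoc1* and *Apoc3* had none. TATAAA occurred in 5 of the 12 windows and in 12.4% of all 32851 promoter windows. Of those 5, 2 were overlapping *Apoa5* windows that held the same site, so the shares are not of separate sites. In the *Apoa5* window shown its first base lay 56 bases before the start. In *Apoa2* TATAAA began 212 bases before the start, with CCAAT in reverse at 164 bases. The *Apoe* window shown held none of the 5 motifs, while of the 2 windows at other *Apoe* starts 1 held TATAAA on both strands (at 100 and 96 bases) and 1 held GTTAAT (at 172 bases). CCAAT was in 2 of the 12 windows against 33.8% of all windows, AGGTCA in 2 against 14.0%, GTTAAT in 2 against 6.43% and CAAAGTCCA in 0 against 0.384%.

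Levels in null liver were read on the scale of deposited FPKM (fragments per transcript length and sequencing depth, here scaled with size factors over all 12 libraries). Without *Apoc2*, whose value is uncertain, they ran from 89.0 to 18947 FPKM. Only with *Apoc2* did the 10 genes span more than 3 orders of magnitude. *Apoa2* was highest at 18947 ± 802 FPKM (SD, n = 3), followed by *Apoe* at 18086 ± 2224, and the ranges of these 2 overlapped. *Apoa1* followed at 11896 ± 2706 FPKM, then *Apoc1* at 6044 ± 1333 and *Apoc3* at 3375 ± 352, each below the range of the gene before it. *Apoa5*, which encodes an activator of triglyceride clearance, stood at 699 ± 32.1 FPKM, *Apob* at 441 ± 58.1, *Apoa4* at 254 ± 41.5 and *Mttp* at 89.0 ± 22.4, again without overlap between neighbours. The place of *Apoa4* in this order is uncertain because of its shared exon bases. *Apoc2* was listed at 3.04 ± 2.08 FPKM, under the overlap described above. The order was the same in hHKDC1 OE liver, where the ranges of *Apoa5* and *Apob*, and of *Apob* and *Apoa4*, now overlapped. Together the 10 genes took 4.81%, 6.15% and 6.41% of all counts in the null livers and 4.64%, 5.85% and 4.42% in the hHKDC1 OE livers, and *Apoe* alone took 1.98% to 3.07%.

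**Figure D1:**
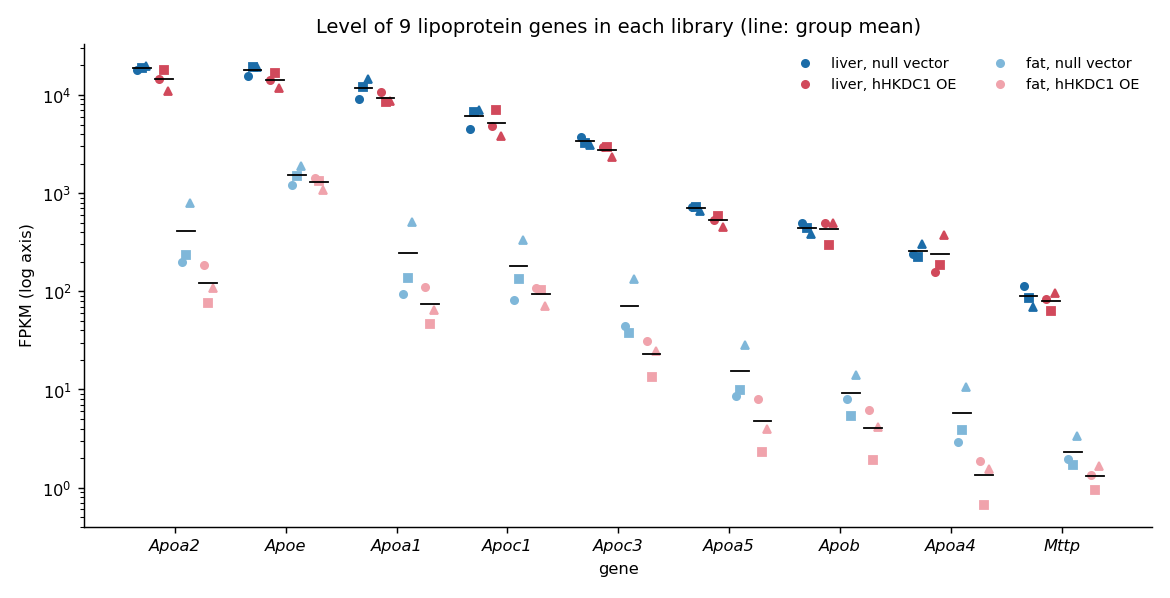
FPKM of 9 lipoprotein genes (log axis) in each of the 12 libraries, ordered by their mean in null liver; circles, squares and triangles are replicates 1, 2 and 3 and the line is the group mean. *Apoe* in fat lay between 1087 and 1900 FPKM, above every other gene in fat, and fat null replicate 3 was the highest of the 6 fat libraries for all 9 genes.

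Whether hepatic hHKDC1 OE altered the lipoprotein genes of the liver was tested first. No gene of the 10 was called in the edgeR quasi-likelihood fit (Benjamini-Hochberg adjusted), as was the case for 0% of the 13351 genes tested, whose smallest adjusted p was 0.0573. Below an unadjusted p of 0.05 lay 0 of 10, against 6.94% of all genes. DESeq2, run as an alternative, called 42 genes higher and 48 lower, and limma on log2(FPKM + 1) called 2 and 1, with 0 of the 10 among them in either. Of the 10, 8 had a lower and 2 a higher mean, with a log2 fold change of -0.23 in the median against 0.01 for all genes, and of -0.37 without null replicate 1. Of the 10 hepatocyte markers, 6 were lower and 4 higher, with a median of -0.19. Their summed CPM, mostly *Alb*, was lower in the hHKDC1 OE livers, as given above. The part of this in the results was not tested.

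Of the coat proteins of high-density lipoprotein, *Apoa1* was at 8016, 11061 and 13381 CPM in null liver and 9871, 8041 and 7985 CPM in hHKDC1 OE liver. The groups overlapped, since null replicate 1 was among the low libraries. The log2 fold change was -0.33 ± 0.23 (SE, adjusted p = 0.841). *Apoa2* was at 6956, 7513 and 7928 CPM in null and 5752, 7319 and 4441 CPM in hHKDC1 OE liver, and hHKDC1 OE replicate 2 lay inside the null range. Its log2 fold change was -0.35 ± 0.22 (adjusted p = 0.820).

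The 3 genes with opposing roles in triglyceride clearance share the chromosome 9 cluster. *Apoa5* was at 1293, 1335 and 1248 CPM in null and 999, 1135 and 854 CPM in hHKDC1 OE liver. All hHKDC1 OE libraries were below all null libraries, a log2 fold change of -0.38 ± 0.17 (adjusted p = 0.718). *Apoc3*, which encodes an inhibitor of lipoprotein lipase and of remnant uptake, was at 2729, 2439 and 2348 CPM in null and 2218, 2260 and 1751 CPM in hHKDC1 OE liver. These groups did not overlap either, with a log2 fold change of -0.27 ± 0.18 (adjusted p = 0.826). Such groups, lower with the vector and without overlap, made up 2 of 10 here and 6.18% of all genes tested. In an exact permutation test of the mean CPM, two-sided, both had p = 0.1, the smallest value that 3 against 3 libraries can give. *Apoa4*, a lipid-responsive apolipoprotein, was at 309, 299 and 409 CPM in null and at 210, 258 and 513 CPM in hHKDC1 OE liver, so that hHKDC1 OE held both the lowest and the highest library.

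For the remaining exchangeable apolipoproteins the groups overlapped. *Apoe*, the ligand for remnant uptake, was at 23682, 30773 and 30763 CPM in null and 22344, 27505 and 18953 CPM in hHKDC1 OE liver, a log2 fold change of -0.31 ± 0.23 (adjusted p = 0.851). *Apoc1*, its neighbour on chromosome 7, was at 2397, 3663 and 3867 CPM and at 2641, 3968 and 2117 CPM, with a log2 fold change of -0.19 ± 0.28 (adjusted p = 0.937). The highest *Apoc1* library was thus hHKDC1 OE replicate 2, which was also the highest hHKDC1 OE library for *Apoa2*, *Apoa5* and *Apoe*. *Apoc2*, the cofactor of lipoprotein lipase, had 8, 46 and 32 counts in null and 18, 64 and 21 counts in hHKDC1 OE liver. Compared within same-numbered liver libraries, 4 of the 10 genes (*Apoa2*, *Apoa5*, *Apoc3* and *Apoe*) had lower CPM with hHKDC1 OE in all 3 pairs, as did 14.9% of all genes tested. No label pairs these mice, so this is a description only. With the replicate number as a block in edgeR none of the 10 was called, and the smallest adjusted p was 0.621 (*Apoa5*).

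The 2 genes of particle assembly differed little in mean. *Apob* was at 4954, 4564 and 3979 CPM in null and 5144, 3181 and 5234 CPM in hHKDC1 OE liver, and its log2 fold change was 0.01 ± 0.23 (adjusted p = 0.998). *Mttp* was at 501, 390 and 320 CPM in null and 380, 298 and 445 CPM in hHKDC1 OE liver, with a log2 fold change of -0.11 ± 0.21 (adjusted p = 0.955). Both were lowest in hHKDC1 OE replicate 2, the library in which *Apoc1* was highest. Without that library the median of the 10 genes became -0.40, 3 of the 10 were lower at an unadjusted p under 0.05 (*Apoa2*, *Apoa5* and *Apoe*), against 5.3% of all genes, and the smallest adjusted p was 0.255. That fit called 77 genes higher and 69 lower, none of them among the 10.

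**Figure D2:**
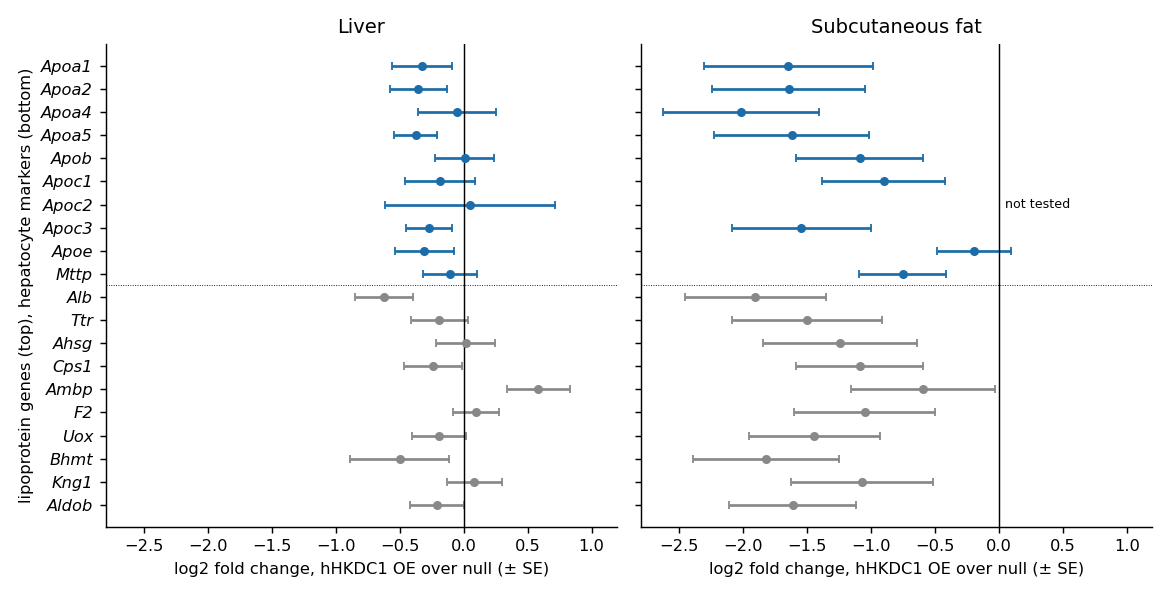
Log2 fold change of hHKDC1 OE over null with its standard error from edgeR, for the lipoprotein genes (blue; 10 in liver and 9 in fat, where *Apoc2* is marked as not tested) and 10 hepatocyte markers (grey), in liver on the left and fat on the right. In liver the lipoprotein genes lay between -0.38 and 0.05, and in fat between -2.02 and -0.20, with the hepatocyte markers between -1.91 and -0.60.

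Across the 6 liver libraries the genes did not all vary together. Pearson's r of log2 CPM was 0.94 between *Apoa2* and *Apoe*, 0.93 between *Apoa2* and *Apoa5*, 0.93 between *Apoc1* and *Apoe* and 0.91 between *Apoa5* and *Apoc3*. *Apob* and *Mttp* had r = 0.84 with each other and -0.83 and -0.84 with *Apoc1*. *Apoa4* had r between -0.49 (with *Apoc3*) and 0.24 (with *Mttp*) with the others. These are descriptions over 6 libraries that share the treatment groups and the scaling. The 5 genes whose profile was most like the mean profile of the 10 were *Ech1* (r = 0.99), *Celf2* (r = 0.99), *Afap1l1* (r = 0.99), *Supt7l* (r = 0.98) and *Cmtm3* (r = 0.98).

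The wider pathway in liver was read from 51 genes in 6 lists, of which 50 were tested. None was called, and at an unadjusted p under 0.05 1 was higher and 4 were lower, against 3.89% and 3.05% of all genes. The 12 genes of apolipoprotein B particle assembly were at -0.10 in the median, with 3 higher and 9 lower. Of these *Ces1d*, a lipid droplet hydrolase, was at 650, 772 and 961 CPM in null and 364, 400 and 529 CPM in hHKDC1 OE liver, without overlap (log2 fold change -0.88 ± 0.21, adjusted p = 0.435). *Cideb*, which helps to load lipid onto the nascent particle, was at 50.9 to 58.8 CPM and 39.9 to 49.1 CPM (adjusted p = 0.736).

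In the lipoprotein lipase system, 2 of 6 were higher and 4 lower. *Angptl4*, an inhibitor of the lipase, was at 254, 330 and 235 CPM in null and 166, 188 and 118 CPM in hHKDC1 OE liver (log2 fold change -0.79 ± 0.21, adjusted p = 0.494). *Angptl8*, a feeding-induced protein that acts on lipoprotein lipase activity, was at 18.5, 24.6 and 11.1 CPM and at 68.7, 69.6 and 18.3 CPM (log2 fold change 1.53 ± 0.46, adjusted p = 0.539). Its hHKDC1 OE replicate 3 lay within the null range, while the other 2 were far above it.

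The 8 genes of high-density lipoprotein remodelling had a median of -0.20, with 2 higher and 6 lower, and *Lipc* (-0.27, adjusted p = 0.784) and *Pon1* (-0.28, adjusted p = 0.807) had the smallest p. The 8 receptor genes had a median of 0.05, with 4 higher and 4 lower, among them *Vldlr* (-1.17, or -0.62 without null replicate 1 and -2.34 without hHKDC1 OE replicate 2, at 0.55 to 4.76 CPM, adjusted p = 0.818). Of the 4 other apolipoproteins tested, 2 were higher and 2 lower, with *Apoc4* at -0.35 (adjusted p = 0.795) and *Apom* at 0.19 (adjusted p = 0.907). Of the 12 transcription regulators of apolipoprotein genes 7 were higher and 5 lower, with a median of 0.03. *Ppara*, the fatty acid receptor, was at 143, 136 and 121 CPM in null and 88.9, 107 and 108 CPM in hHKDC1 OE liver (log2 fold change -0.40 ± 0.15, adjusted p = 0.618), and *Foxo1* was at -0.36 (adjusted p = 0.788).

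The same 10 genes were then compared between null fat and null liver. All 10 passed the edgeR test as lower in fat, in a comparison in which 64.3% of the 15259 genes tested were called in either direction and 30.5% of the 15259 were called lower. The log2 differences were -5.11 to -5.67 for *Apoa1*, *Apoa2*, *Apoa4*, *Apoa5*, *Apob*, *Apoc1*, *Apoc3* and *Mttp*, with adjusted p between 8.8e-06 and 0.000317. *Apoe* differed less, by -3.62 ± 0.40 (adjusted p = 0.000118), and *Apoc2* by -3.23 ± 1.03 (adjusted p = 0.0242) on 0, 4 and 15 counts in null fat. The raw counts of *Apoc2* overlapped between the tissues. The 10 hepatocyte markers differed by -5.49 to -5.87, a range that held 6 of the lipoprotein genes. *Mttp* at -5.31 and *Apoc1* at -5.11 lay just above that range, and *Apoe* lay well above it.

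Per length, *Apoe* was the highest of the 10 in null fat at 1534 ± 353 FPKM and did not overlap the next gene, *Apoa2*, at 408 ± 333 FPKM. The others followed in nearly the order of liver, from *Apoa1* at 246 ± 228 FPKM down to *Mttp* at 2.33 ± 0.875 FPKM, with overlapping neighbours except between *Apoc3* and *Apoa5*. In hHKDC1 OE fat *Apoe* was at 1288 ± 181 FPKM and *Apoa2* at 123 ± 55.1 FPKM. Of all counts in a fat library, the 10 genes took 0.380% to 0.769%, and *Apoe* alone took 0.321% to 0.538%.

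Each fat library was next set against the mean liver of the same vector group, with CPM scaled over all 12 libraries. The median hepatocyte marker in the null fat libraries was at 1.23%, 1.23% and 3.52% of its liver level, and in the hHKDC1 OE fat libraries at 1.43%, 0.485% and 0.797%. *Apoa1*, *Apoa2*, *Apoa5*, *Apob* and *Apoc3* followed these values, with group means of 0.891 to 1.09 times the marker median in either group. *Apoa4* had a mean of 1.08 ± 0.17 times in null and 0.659 ± 0.17 times in hHKDC1 OE fat (SD, n = 3). *Apoe* stood at 6.35%, 8.19% and 9.89% of its liver level in null and 10.8%, 9.07% and 8.10% in hHKDC1 OE fat, above all 10 markers in each of the 6 libraries. *Apoc1* was above all 10 markers in 5 of the 6 libraries, at 1.28% to 5.17%, and so was *Mttp*, at 1.13% to 3.53%.

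**Figure D3:**
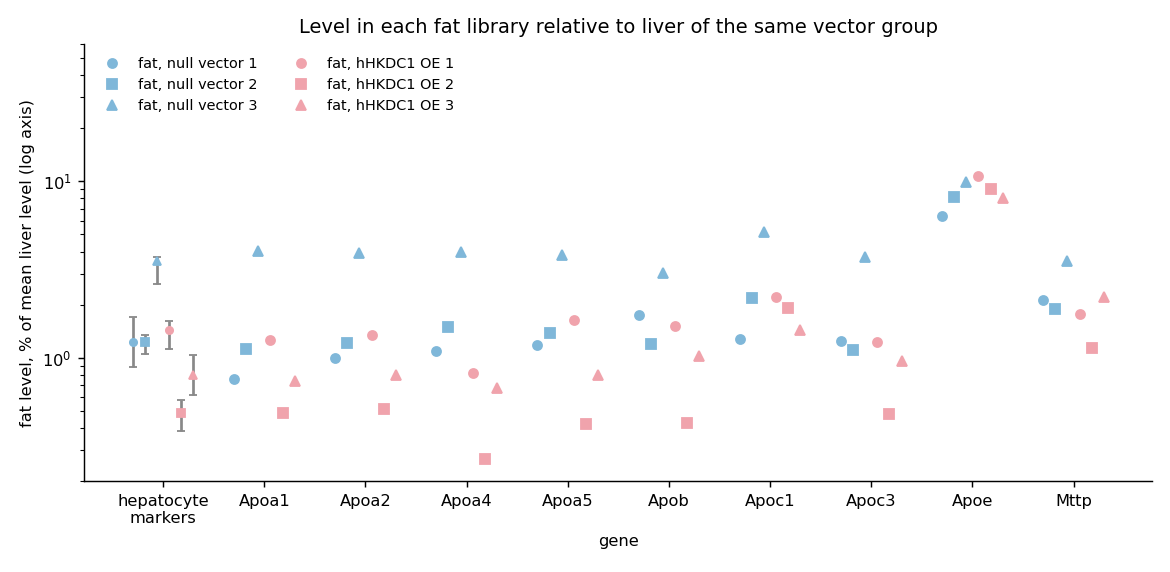
Level of 9 lipoprotein genes in each fat library as a percent of the mean liver level of the same vector group (log axis); for the hepatocyte markers the point is the median of the 10 and the bar spans their lowest to highest. The medians of the markers ran from 0.485% to 3.52% and single markers from 0.386% to 3.74%, and *Apoe* lay between 6.35% and 10.8% in all 6 libraries.

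The effect of the hepatic vector on fat was the last question. None of the 9 genes tested was called, as for 0% of the 16380 genes tested, whose smallest adjusted p was 0.133, and *Apoc2* had too few counts. DESeq2 called 3 of the 9 lower (*Apoa2*, *Apoa4* and *Apoc3*), as it did 1.31% of the 15415 genes to which it gave an adjusted p, and limma called 0. All 9 had a lower mean with hHKDC1 OE, with a median log2 fold change of -1.55 against -0.05 for all genes. Below an unadjusted p of 0.05 lay 5 of 9, all lower, against 6.39% of all genes in that direction. Of the 10 hepatocyte markers all 10 were lower, 5 at an unadjusted p under 0.05, with a median of -1.34, and the part of hepatocyte RNA in the result was not tested.

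*Apoa1* was at 156, 231 and 829 CPM in null and 196, 76.8 and 115 CPM in hHKDC1 OE fat. Null replicate 3 stood far above the other 5 libraries, and the remaining null libraries overlapped the hHKDC1 OE group (log2 fold change -1.65 ± 0.66, adjusted p = 0.264). *Apoa2* was at 142.8, 173 and 561 CPM in null and 142.1, 54.6 and 83.5 CPM in hHKDC1 OE fat, so the groups were apart by less than 1 CPM (-1.65 ± 0.60, adjusted p = 0.230). *Apoa5* was at 29.5, 34.2 and 94.0 CPM and at 29.2, 7.67 and 14.3 CPM, again apart by less than 1 CPM (-1.62 ± 0.61, adjusted p = 0.242). *Apoa4* was at 7.11, 9.61 and 25.7 CPM in null and 4.83, 1.61 and 3.996 CPM in hHKDC1 OE fat, without overlap. It had the largest log2 fold change of the 9 tested, -2.02 ± 0.61 (adjusted p = 0.174). *Apoc3* was at 60.3, 52.8 and 178 CPM in null and 45.7, 18.2 and 35.7 CPM in hHKDC1 OE fat, also without overlap (-1.55 ± 0.54, adjusted p = 0.222).

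Groups apart and lower with hHKDC1 OE made up 4 of the 9 genes here (*Apoa2*, *Apoa4*, *Apoa5* and *Apoc3*), 3 of the 10 hepatocyte markers and 10.2% of all genes tested. For each of these 4 the two-sided exact permutation test gave p = 0.1, the smallest possible. In every one of the 9 genes null replicate 3 was the highest of the 6 fat libraries, and hHKDC1 OE replicate 2, the library with the least hepatocyte marker RNA, was the lowest for *Apoa1*, *Apoa2*, *Apoa4*, *Apoa5*, *Apob*, *Apoc3* and *Mttp*. Without null replicate 3 the median of the 9 moved from -1.55 to -0.69, and 1 of the 9, *Apoa4* at -1.30 ± 0.50 (adjusted p = 0.277), kept an unadjusted p under 0.05, against 6.17% of all genes lower at that level. The other values without that library were -0.61 for *Apoa1*, -0.79 for *Apoa2*, -0.935 for *Apoa5*, -0.69 for *Apob*, -0.19 for *Apoc1*, -0.80 for *Apoc3*, -0.053 for *Apoe* and -0.46 for *Mttp*. The direction was lower for all 9 with any 1 library left out.

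The assembly genes gave smaller values. *Apob* was at 151, 103 and 260 CPM in null and 123, 35.6 and 83.3 CPM in hHKDC1 OE fat (-1.09 ± 0.50, adjusted p = 0.306). *Mttp* was at 16.4, 14.6 and 27.3 CPM and at 11.9, 7.77 and 14.9 CPM (-0.75 ± 0.34, adjusted p = 0.301). In both the groups overlapped through 1 library each. *Apoc1* was at 81.3, 138 and 326 CPM in null and 115, 101 and 75.4 CPM in hHKDC1 OE fat (-0.90 ± 0.48, adjusted p = 0.364). *Apoe* was at 3458, 4431 and 5364 CPM in null and 4427, 3805 and 3335 CPM in hHKDC1 OE fat, with the groups overlapping and a log2 fold change of -0.20 ± 0.29 (adjusted p = 0.735), the smallest of the 9. Macrophages, which make *Apoe*, had a marker sum with all 3 hHKDC1 OE fat libraries above all null libraries, as given above.

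The fat levels were also read per hepatocyte marker RNA within the same library. *Apoa1* was 5.93%, 9.06% and 11.6% of the marker sum in null and 9.73%, 10.9% and 10.3% in hHKDC1 OE fat. *Apoa2*, *Apoa4*, *Apoa5*, *Apob*, *Apoc3* and *Mttp* overlapped between the groups too, with *Apoa5* at 1.12% to 1.34% and 1.09% to 1.45%. *Mttp* was at 0.623%, 0.571% and 0.381% in null and 0.590%, 1.10% and 1.33% in hHKDC1 OE fat, so that 2 of the 3 hHKDC1 OE libraries were above all null libraries. On this scale the order between the groups that the CPM showed was no longer present for *Apoa2*, *Apoa4*, *Apoa5* and *Apoc3*. *Apoc1* and *Apoe* were higher in all 3 hHKDC1 OE libraries, *Apoe* at 75.0% to 173% in null and 220% to 540% in hHKDC1 OE fat, as were 57.5% of all genes tested. Across the 6 fat libraries Pearson's r of log2 CPM with the log2 marker sum was 0.95 or more for *Apoa1*, *Apoa2*, *Apoa4*, *Apoa5*, *Apob* and *Apoc3*, 0.90 for *Mttp*, 0.77 for *Apoc1* and 0.72 for *Apoe*. These r describe 6 libraries that share treatment and scaling, and null replicate 3 lies far from the rest.

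**Figure D4:**
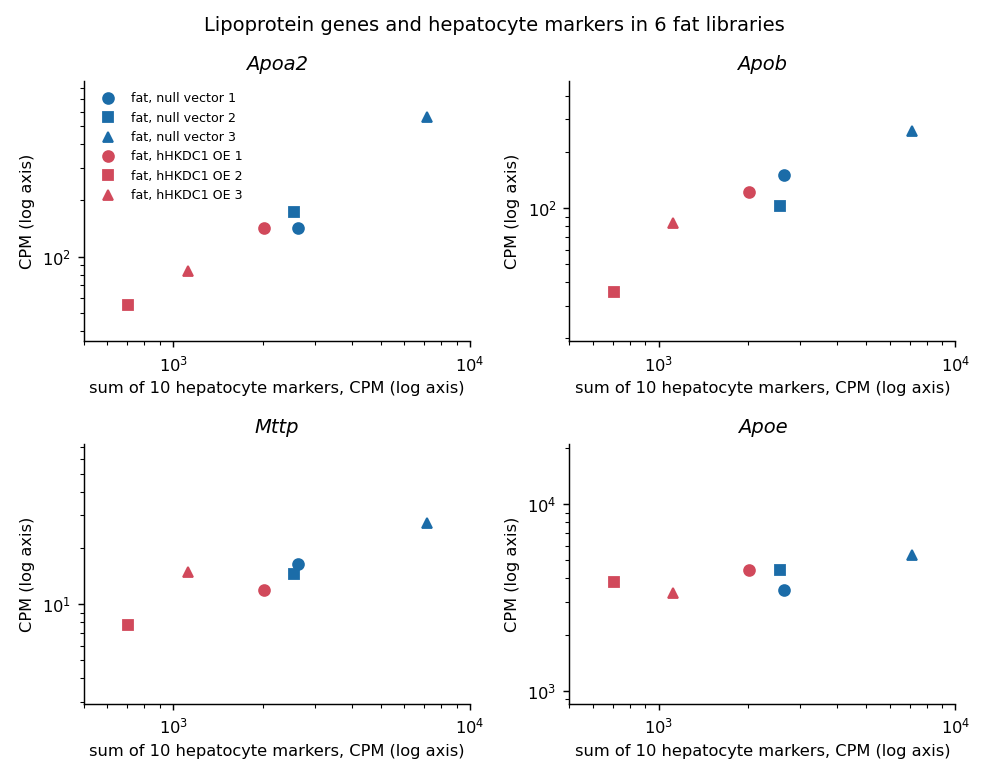
CPM of *Apoa2*, *Apob*, *Mttp* and *Apoe* against the summed CPM of 10 hepatocyte markers in the 6 fat libraries (both axes log; blue null, red hHKDC1 OE). *Apoa2* ran from 54.6 CPM at the lowest marker sum to 561 CPM at the highest, while *Apoe* lay between 3335 and 5364 CPM.

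An interaction term in a fit of all 12 libraries asked whether the effect of the vector differed between the tissues. None of the 10 genes was called by edgeR, as for 0% of 17070 genes. DESeq2 called 400 genes higher and 95 lower and limma 0, with none of the 10 among them. In edgeR 9 of the 10 were more negative in fat, with a median of -1.18 against 0.03 for all genes. *Apoa4* alone had an unadjusted p under 0.05, which 3.67% of all genes had in that direction, at -1.89 ± 0.72 (adjusted p = 0.300). *Apoe* was the 1 gene with a positive difference, 0.19 ± 0.51 (adjusted p = 0.921). Without fat null replicate 3 the median of the 10 moved to -0.45, again with none called. Without fat hHKDC1 OE replicate 2 the fit called 700 genes higher and 511 lower, none of them among the 10. The hepatocyte markers had a median of -1.17 in the test with all libraries, with 10 of 10 more negative in fat.

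In fat all 51 genes of the 6 pathway lists were tested and none was called. At an unadjusted p under 0.05, 2 were higher and 5 lower, against 11.3% and 6.39% of all genes, and 46 of the 51 had a lower mean, with a median of -0.44. The 5 other apolipoproteins were all lower, with a median of -1.24, and the smallest p were those of *Apof* at -1.24 (adjusted p = 0.287) and *Apoh* at -1.34 (adjusted p = 0.290). Without fat null replicate 3 these became -0.57 and -0.59. The 12 transcription regulators had 11 lower and a median of -0.78. Of these, *Rora* was at 92.2, 88.9 and 75.5 CPM in null and 46.9, 60.2 and 47.9 CPM in hHKDC1 OE fat (log2 fold change -0.73 ± 0.16, adjusted p = 0.133). *Foxo1*, a mediator of insulin signalling, was at 218, 193 and 185 CPM and at 107, 139 and 109 CPM (-0.75 ± 0.16, adjusted p = 0.133). Between null fat and null liver these 2 differed by -0.65 and 0.37 on the log2 scale, far less than the hepatocyte markers.

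Of the lipoprotein lipase system in fat, 5 of 6 were lower. *Lpl*, the lipase itself and abundant in adipocytes, was at 13054, 10597 and 12820 CPM in null and 4203, 10429 and 6655 CPM in hHKDC1 OE fat (-0.78 ± 0.41, adjusted p = 0.362), apart only narrowly at replicate 2 of each group. Of the receptors, 7 of 8 were lower, with *Vldlr* at -0.63 (adjusted p = 0.259).

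Of the 8 genes of high-density lipoprotein remodelling in fat 7 were lower, with a median of -0.24. *Abcg1*, a cholesterol exporter of macrophages, was the exception at 47.7, 53.5 and 58.3 CPM in null and 90.4, 58.2 and 130 CPM in hHKDC1 OE fat (0.80 ± 0.28, adjusted p = 0.222), and *Pon1* was at -1.01 (adjusted p = 0.292), or -0.56 without fat null replicate 3. Of the 12 assembly genes 11 were lower, with a median of -0.32. *Apobec1*, the editing enzyme of the *Apob* transcript, was higher at 18.3, 13.7 and 21.0 CPM in null and 29.8, 22.0 and 31.3 CPM in hHKDC1 OE fat (0.65 ± 0.23, adjusted p = 0.225), and *Tm6sf2* was at -1.25 (adjusted p = 0.279), or -0.77 without that library.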

How the data were processed

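Total RNA of liver and subcutaneous fat was sequenced. According to the submitters' processing notes the authors used STAR 2.5 for mapping and HTSeq 0.6.1 for counting; the sources name a human genome, but the identifiers are mouse Ensembl and the positions of all 10 genes match GENCODE M21 on GRCm38. The deposited counts are raw counts per gene. The FPKM values deposited by the authors were scaled with size factors over all 12 libraries: 100% of 252371 values lay within 1% of counts divided by length and DESeq2 size factor. Files of the authors' own fold changes and p-values were not used.

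Counts were fitted with edgeR 4.0.16 (glmQLFit, glmQLFTest) in R 4.3.3, with TMM, filterByExpr and Benjamini-Hochberg adjustment over all genes tested, separately for each tissue, as an interaction over 12 libraries, and for null fat against null liver. A call is an adjusted p under 0.05. CPM were scaled by TMM within a tissue unless said otherwise. Exact permutation tests used SciPy. Standard errors are those implied by the fold change and its F statistic. The scripts were tested on simulated data. Alternatives used DESeq2 1.42.0, limma 3.58.1 on log2(FPKM + 1) and log2(FPKM + 0.1), other scalings and filters, a replicate block and each library left out.

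Same-numbered liver libraries of the 2 vector groups deviated together only weakly (r = 0.21, 0.17 and 0.10), and they were compared by number as a description. No label pairs these mice. The unlike-numbered fat null 2 and fat hHKDC1 OE 1 had r = 0.31, so r of this size does not show a pairing. In fat the same-numbered values were 0.03, -0.15 and 0.03, and no such comparison by number was made. The members, lists and tests were chosen with earlier results of these data known. Genes were named by rule: the 10 genes, the 2 with the smallest p of each pathway list in each tissue, and the 5 most like the 10 in liver. The values of 2 genes that the rule named are not reported here. Nothing in the labels gives separate cultures or litters, so p-values measure the spread between these libraries. At these depths 0 counts allow up to 3, counting error only.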

Additional observations from a re-analysis of the deposited data

How the results depend on the processing

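The count of called genes among the 10 was 0 in liver, in fat and for the interaction under every edgeR and limma alternative, and 0 to 0 with any 1 library left out. DESeq2 called 3 in fat, *Apoa2* (adjusted p = 0.0398), *Apoa4* (0.0136) and *Apoc3* (0.0437), with log2 fold changes of -1.64, -2.01 and -1.54, in a fit that called 1101 genes higher and 202 lower where edgeR called 0. The cause was not tested. Across the alternatives that kept all libraries, the adjusted p ran from 0.0398 to 0.320 for *Apoa2*, from 0.0136 to 0.298 for *Apoa4* and from 0.0437 to 0.313 for *Apoc3*. Without fat hHKDC1 OE replicate 2 edgeR called 1957 genes higher and 1294 lower in fat, none of them among the 9, and *Rora*, *Foxo1*, *Abcg1*, *Lpl*, *Vldlr* and *Apobec1* then passed. In null fat against null liver all 10 remained called except *Apoc2* under library total scaling (-2.35) and without liver null replicate 2, liver null replicate 3 or fat null replicate 2, giving 9 to 10 calls. A minimum of 10 counts in every library left *Apoc2* untested. That scaling moved the median of all genes there from 0.09 to 0.98, with 9012 genes higher and 2286 lower against 5163 and 4647, and in fat under treatment from -0.05 to 0.11, where the median of the 9 was -1.43.

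Signs that changed were those of small differences in liver: *Apob* was -0.023 with the replicate block, -0.056 with limma at either pseudocount and -0.012 with all 12 libraries in 1 fit, and *Apoa4* was 0.024 with library total scaling. With 1 library left out *Apoa4* ran from -0.53 to 0.19, *Apob* from -0.11 to 0.21, *Apoc2* from -0.71 to 0.61, *Mttp* from -0.25 to 0.077, and *Apoe* in the interaction from -0.13 to 0.32. Of the other liver differences *Apoa1* ran from -0.50 to -0.14, *Apoa2* from -0.55 to -0.19, *Apoc1* from -0.48 to -0.0016, *Apoc3* from -0.34 to -0.16 and *Apoe* from -0.46 to -0.19. Of the pathway genes named, *Vldlr* ran from -2.34 to -0.62, *Foxo1* from -0.53 to -0.20, *Apom* from 0.037 to 0.42, *Apoc4* from -0.53 to -0.21 and *Pon1* from -0.35 to -0.17 in liver, and *Lpl* from -1.17 to -0.51 and *Abcg1* from 0.49 to 1.04 in fat. Under the alternatives that kept all libraries, *Vldlr* in liver ran from -1.26 to -0.25 and *Tm6sf2* in fat from -1.27 to -0.40. The replicate block called 0 of the 10 in liver, 0 in fat and 0 in the interaction, so it changed no call among them, and 10 between the null tissues. It called 13 genes higher and 4 lower in liver and 159 and 9 in fat where the unblocked fit called 0. The edgeR fit of all 12 libraries called 770 higher and 106 lower for the treatment in fat. With no filter on low counts edgeR called 180 and 147 genes in liver, 723 and 80 in fat, and 426 and 53 for the interaction. *Ces1d*, *Angptl4* and *Angptl8* passed in liver without the filter, *Ces1d* and *Angptl4* also with DESeq2 (42 genes higher and 48 lower in all), and *Rora* and *Foxo1* in fat with DESeq2. The group means of CPM and the ratios to the hepatocyte markers moved by less than 1 SD under RLE scaling and with *Alb* in place of the 10 markers. Without null replicate 3 the means in null fat fell from 406 to 194 CPM for *Apoa1* and from 292 to 158 CPM for *Apoa2*, and those of *Apoa4*, *Apoa5*, *Apoc1* and *Apoc3* also fell by over 1.5 times, as did *Apoa5* in hHKDC1 OE fat without replicate 1.

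With 3 libraries a group, 1 library, fat null replicate 3, moves the median fat difference of the 9 genes from -1.55 to -0.69 when left out. Counts were fewest for *Apoc2*, at 0 to 64 in a library. They were also low for *Apoa4* in hHKDC1 OE fat (33 to 102), *Vldlr* in liver (9 to 77) and *Tm6sf2* in fat (9 to 56).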
